A study of Mus musculus with 24 samples.

Results

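Heat shock proteins, chaperonins and their partners were followed through 4 cell populations of mouse hindlimb muscle. The genes were taken by symbol: the Hspa, Hspb, Hspd, Hspe, Hsph and Hsp90 genes, the Dnaja, Dnajb and Dnajc genes, the Cct genes with Tcp1, Bag1 to Bag6, and the transcription factors Hsf1 and Hsf2. Among 52997 counted symbols, 89 fitted these names. The 87 with at least 20 counts summed over 24 libraries were kept. Just inside that limit were Dnajb8 with 20 counts and Hspa1l with 27, and just outside were Dnajc22 with 11 and Hspb3 with 14. The names take in 14 genes of the Hsp70 and Hsp110 family, 3 of the Hsp90 family, 42 DnaJ genes, 8 subunits of the cytosolic chaperonin CCT, the pair that forms the mitochondrial chaperonin, and 5 small heat shock proteins. The remaining 13 were 6 Bag genes, both heat shock factors and 5 genes set apart from these classes. Of those 5, Hspbap1 and Hspbp1 match by name only, and Hspbp1 is a partner of Hsp70. Cct6b, Hspb9 and Hspb11 were counted outside the CCT subunits and small heat shock proteins above. Low counts left Cct6b, Dnajb8, Dnajc6, Hspa1l and Hspb9 untested, so that 82 members were tested.

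The cells came from hindlimb skeletal muscle of C57BL/6 mice aged 8 weeks, with no transgene or deletion named in the labels. Muscle was either uninjured or taken 1 day after cardiotoxin, which comes from snake venom and kills muscle fibers. The sorted populations were CD45+ (hematopoietic cells), CD31+ (endothelial cells), MSC (mesenchymal stromal cells, CD45-CD31-Sca1+PDGFRa+) and MuSC (muscle stem or satellite cells, CD45-CD31-Sca1-Vcam1+). Each of the 8 groups had 3 libraries of 1000 cells, described as biological replicates. All p-values rest on the spread among such libraries. CD45+ is a gate over many cell types, MSC and MuSC are gates on surface proteins and not lineages, and the labels do not say which libraries share a mouse.

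Library totals ran from 2301202 to 7649841 counts, so that an undetected gene could have up to 3 counts, or 0.389 to 1.02 CPM (counts scaled by library size). That limit and all other precision from depth cover counting error only, since the libraries carry no molecular identifiers. The defining markers were present in each gate: the 10 endothelial markers summed to 15182 to 16395 CPM in uninjured CD31+ libraries and the 10 leukocyte markers to 35997 to 41475 CPM in uninjured CD45+ libraries. The 10 stromal markers summed to 161178 to 212221 CPM in uninjured MSC and the 10 satellite cell markers to 6298 to 7067 CPM in uninjured MuSC. The makeup of some gates moved with injury. In CD45+ cells all 10 lymphocyte markers fell (summed 717 to 2765 CPM before and 13.5 to 52.3 CPM after injury) and 8 of 10 neutrophil markers rose (summed 1213 to 3975 CPM before and 8114 to 12667 CPM after). The leukocyte markers summed to 401 CPM in injured CD31+ library 1 and to at most 29.3 CPM in libraries 2 and 3. Of 12 muscle fiber markers 9 were tested, and 3 fell in CD31+ cells, 8 in CD45+, 9 in MSC and 6 in MuSC. Their sum went from 170.2 to 463 CPM before injury to 3.63 to 15.4 CPM after it in MSC.

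Molecular chaperones bind unfolded protein and help it fold, assemble or be removed. Hsp70 proteins bind short exposed stretches in cycles of ATP, DnaJ proteins bring them clients, Bag proteins and Hsp110 proteins release the nucleotide, and Hsp90 takes over later steps for kinases and receptors. Chaperonins are closed barrels: CCT folds actin and tubulin in the cytosol, and Hspd1 with its lid Hspe1 folds proteins inside mitochondria. Small heat shock proteins hold unfolded protein without ATP and are abundant in muscle. Hsf1 drives the heat shock genes through heat shock elements, and the unfolded protein response of the endoplasmic reticulum (ER) drives the ER chaperones through ER stress elements.

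Both elements were looked for in the promoters that RefSeq gives on GRCm38.p6 (250 bases before to 50 after a start site), which held 72 of the 87 members. These stretches are shown because the members with an ER stress element are 3 of those whose response to injury differed between populations. Such a difference was called for 44 of the 87 members and for 35.9% of all tested genes, and its relation to the elements was not tested. A further reason for showing the stretches is that the promoters of both genes of the mitochondrial chaperonin hold the longer heat shock element. The heat shock element was searched as GAANNTTCNNGAA on both strands and, in its longer form, with 4 alternating units. The 3-unit form was in 0.603% of all 32851 promoters of this length and in those of Dnajb6, Hspd1, Hspe1 and Hsph1. The 4-unit form, which overlaps it, was in 8 promoters, 2 of them those of Hspd1 and Hspe1, which share 1 match. The Hsph1 match lies after its start sites, at bases 15 to 27 or 36 to 48, and is not shown. Dnajb6, whose match is shown, passed for injury in no population. The promoters of Hspa1a and Hspa1b held no exact match of either form, and looser forms were not searched. The ER stress element, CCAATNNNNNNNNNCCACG on either strand, was in 39 promoters (0.119%), among them those of Hspa5, Hsp90b1 and Dnajc3. Capitals mark the matches, read 5′ to 3′ on the gene's strand. The Hspe1 match lies at chr1:55088059-55088076, 89 to 72 bases before the start site and overlapping an annotated exon. The others lie at these positions: Hspa5 at chr2:34772025-34772043, Hsp90b1 at chr10:86705510-86705686 with 2 matches, Dnajc3 at chr14:118937797-118937875 and Dnajb6 at chr5:29735852-29735864.
Hspe1, heat shock element: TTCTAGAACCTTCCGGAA
Dnajb6, heat shock element: GAATCTTCCGGAA
Hspa5, ER stress element: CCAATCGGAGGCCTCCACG
Hsp90b1, ER stress elements: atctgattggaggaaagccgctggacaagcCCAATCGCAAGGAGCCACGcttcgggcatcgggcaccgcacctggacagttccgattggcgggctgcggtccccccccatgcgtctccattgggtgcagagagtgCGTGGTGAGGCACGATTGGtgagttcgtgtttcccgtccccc
Dnajc3, ER stress element: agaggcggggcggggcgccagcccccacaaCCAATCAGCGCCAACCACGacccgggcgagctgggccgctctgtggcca

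The stress-inducible Hsp70 genes Hspa1a (chr17:34969190-34972156) and Hspa1b (chr17:34956436-34959238) are neighbours on the minus strand with 98.7% identity over their 300-base promoters. The 4 differences, counted from 1 at the window's first base and written Hspa1a base, position, Hspa1b base, were C44T, T47C, T249G and C276T. The stretch that holds the first pair of differences (chr17:34972330-34972393 for Hspa1a and chr17:34959412-34959475 for Hspa1b, capitals at the bases that differ) is shown because these are near-identical copies. How reads that match both were treated is not given in the sources used here, so the split of reads between them is uncertain throughout.
Hspa1a: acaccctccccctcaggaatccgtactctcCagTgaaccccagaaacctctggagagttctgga
Hspa1b: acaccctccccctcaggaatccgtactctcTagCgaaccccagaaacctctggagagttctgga

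One day after injury more chaperone genes rose than fell in every population. Against the uninjured cells of the same population, by edgeR's quasi-likelihood test with adjustment over all 16263 genes tested, 30 of 87 members rose in CD31+ cells (34.5%, where 14.1% of all tested genes rose) and 1 fell (1.15%, against 9.30%). In CD45+ cells 29 rose (33.3%, against 16.0%) and 6 fell (6.90%, against 18.5%). In MSC 32 rose (36.8%, against 18.3%) and 9 fell (10.3%, against 23.6%). DESeq2 gave 31 and 15 there. In MuSC 36 rose (41.4%, against 21.4%) and 6 fell (6.90%, against 17.5%). Shares of members are over all 87, the 5 untested ones included, while those of all genes are over tested genes only. The median log2 fold change of the 82 tested members was 0.38 in CD31+ cells, 0.36 in CD45+, 0.28 in MSC and 0.49 in MuSC, beside -0.04, -0.12, -0.22 and -0.04 for all tested genes. The members together took 0.797 to 0.827% of counts in uninjured and 1.45 to 1.63% in injured CD31+ libraries, and 0.796 to 0.838% and 1.13 to 1.22% in CD45+. They took 0.876 to 0.985% and 2.27 to 2.36% in MSC, and 1.32 to 1.33% and 2.77 to 2.96% in MuSC, with no overlap between conditions. In bulk sorts such as these, a change in the makeup of a gate and a change within its cells cannot be told apart.

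Many of these rises were shared between populations. Of the 82 tested members 20 rose in all 4 populations: the 8 CCT subunits, Hspd1, Hsp90aa1, Hspa4, Hspa5, Hspa8, Hspa9, Hsph1, Dnaja1, Dnaja2, Dnaja3, Dnajc11 and Hspbp1. A further 9 rose in 3 populations (Hsp90ab1, Hsp90b1, Hspe1, Hspa14, Dnajb11, Dnajc2, Dnajc7, Dnajc15 and Dnajc24). On the other side 24 passed in no population, among them Hspb1, Bag4, Bag6, Dnajb4, Dnajb6, Dnajc19 and Hsf1. Hspa12a, an atypical Hsp70, fell in 3, namely CD45+, MSC and MuSC. In CD45+ cells it went from 2, 1 and 4 counts to 0 in each library, around the limit of 3 counts. These lists were read off the calls after their values were seen. How many of all tested genes had the same patterns was not counted, so these counts have no background beside them. The only fall in CD31+ cells, of Dnajc17, a nuclear DnaJ gene, from 33.4, 35.0 and 24.2 CPM to 20.3, 19.4 and 15.2 CPM (log2 fold change -0.75 ± 0.27, SE, adjusted p = 0.0484), depended on single libraries. The call was lost without uninjured library 1 or 2 and without any of the 3 injured libraries (adjusted p up to 0.26 over the alternatives). In MuSC 3 members fell, in place of 6, without uninjured library 3 or injured library 1. Without uninjured library 1 of CD31+ or of MSC 10 fell there and 33 rose, and the median of all genes was -0.19 (log2) in place of -0.04.

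**Figure D1:**
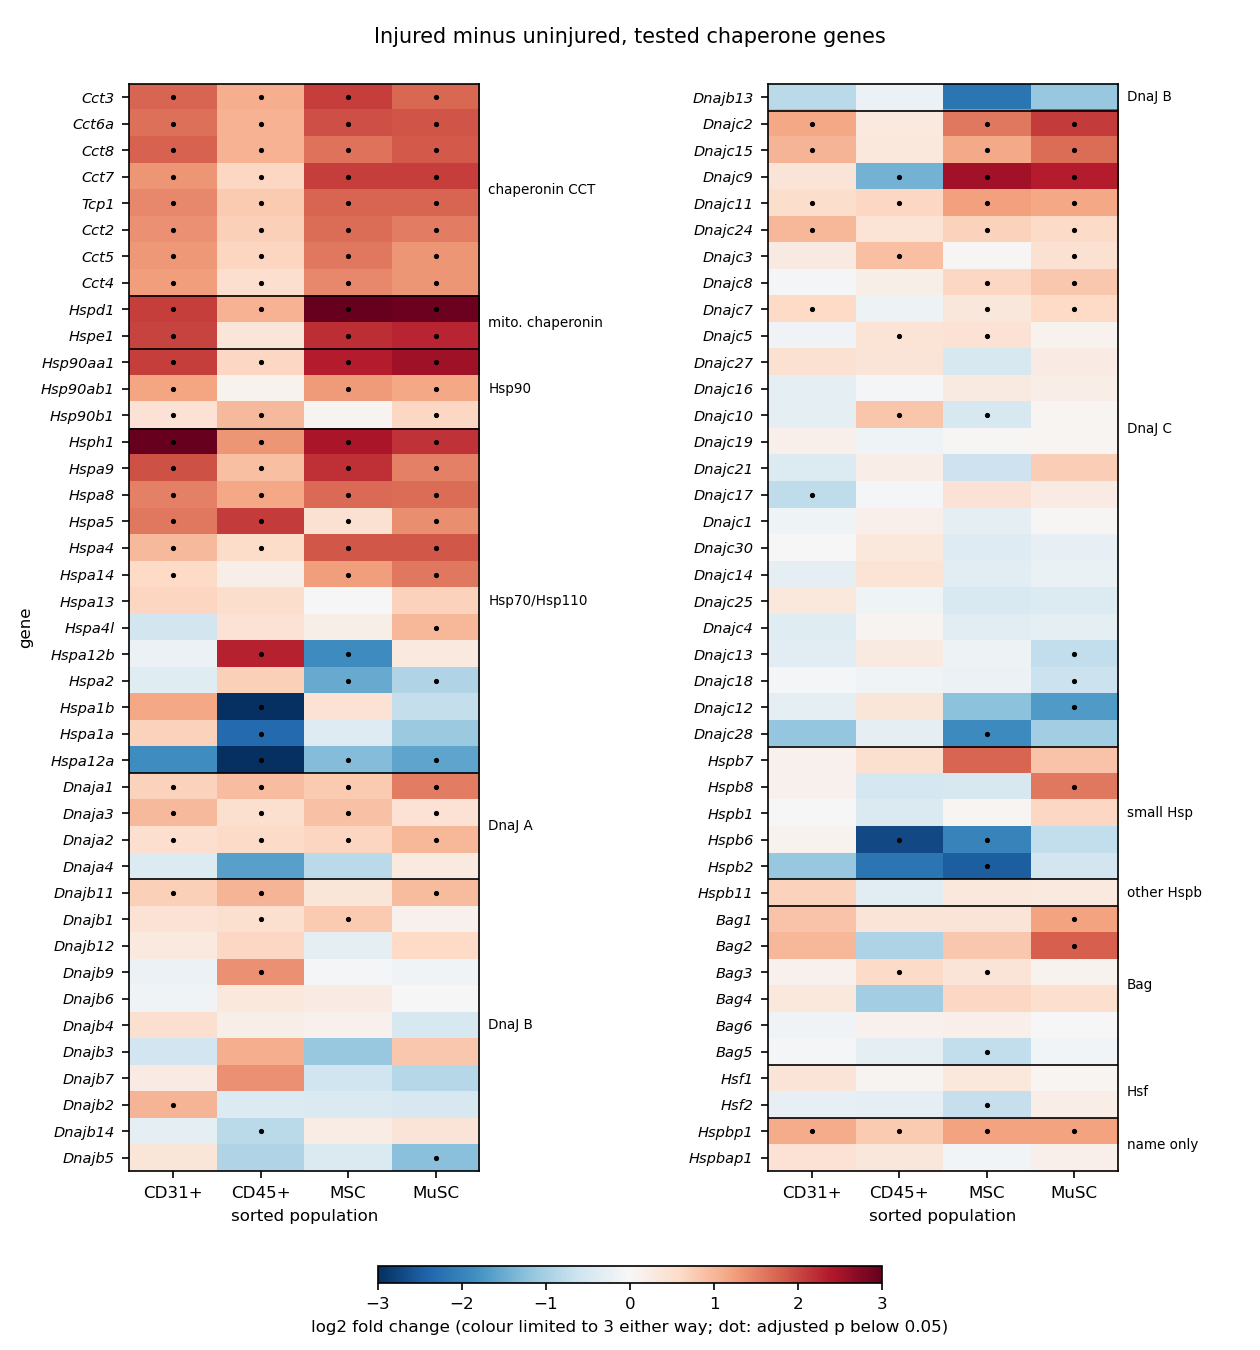
Log2 fold change after injury of the 82 tested members (rows, grouped by family) in the 4 sorted populations (columns), red for higher and blue for lower after injury, with a dot where the adjusted p was below 0.05. The block of CCT subunits at the top is red and dotted in all 4 columns and palest in CD45+ cells, while the small heat shock proteins and most DnaJ C genes show no common direction.

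All 8 subunits of CCT, the barrel that folds actin and tubulin, rose in all 4 populations, and in each population the libraries of the 2 conditions did not overlap for any subunit. The log2 fold changes ran from 1.26 (Cct4) to 1.77 (Cct8) in CD31+ cells, 0.52 (Cct4) to 1.09 (Cct3) in CD45+, 1.45 (Cct4) to 2.07 (Cct3) in MSC and 1.31 (Cct4) to 2.08 (Cct7) in MuSC. The largest adjusted p among these 32 tests was 5.1e-05. Summed over subunits, uninjured libraries held 1439 to 1465 CPM in CD31+ cells, 1908 to 2012 in CD45+, 1786 to 2028 in MSC and 2793 to 2896 in MuSC. Injured libraries held 3497 to 4332, 3289 to 3571, 6335 to 6904 and 8882 to 9278 CPM. MuSC thus held the highest summed level before and after injury, and CD45+ cells gained least.

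Cct4 (chr11:22990519-23003780) had the smallest fold of the 8 in every population and the smallest spread between replicates of any member with a mean of at least 20 CPM (pooled SD of log2(CPM + 1) within groups 0.0655, against a median of 0.179 over 59 such members). In MuSC it rose from 358, 360.0 and 335 CPM to 907, 870.0 and 841 CPM (1.31 ± 0.08). The CD45+ libraries rose from 257, 292 and 273 CPM to 381, 399.6 and 394 CPM (0.52 ± 0.08, adjusted p = 2.61e-05). Cct7 (chr6:85451514-85468475) was the subunit whose response differed most clearly between populations (adjusted p of the difference, edgeR's F test over 4 injury effects, 6.49e-08). It rose from 378, 403 and 369 CPM to 1627, 1691 and 1543 CPM in MuSC (2.08 ± 0.11) and from 283, 219.5 and 302 CPM to 1156, 1084 and 1134 CPM in MSC (2.07 ± 0.11). In CD31+ cells it went from 283, 259.9 and 255 CPM to 649, 758 and 594 CPM (1.33 ± 0.10). In CD45+ cells it went from 259, 259 and 253 CPM to 405, 381 and 400.3 CPM (0.62 ± 0.10). The stem and stromal cells gained about the same, endothelial cells less and CD45+ cells least. Prefoldin, which hands actin and tubulin to CCT, was not in the set. Of its 6 subunits 4 rose in CD31+ cells, 3 in CD45+, 4 in MSC and 5 in MuSC, and 1 fell in each of the last 3. The medians were 0.69, 0.37, 0.62 and 0.90 (log2).

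**Figure D2:**
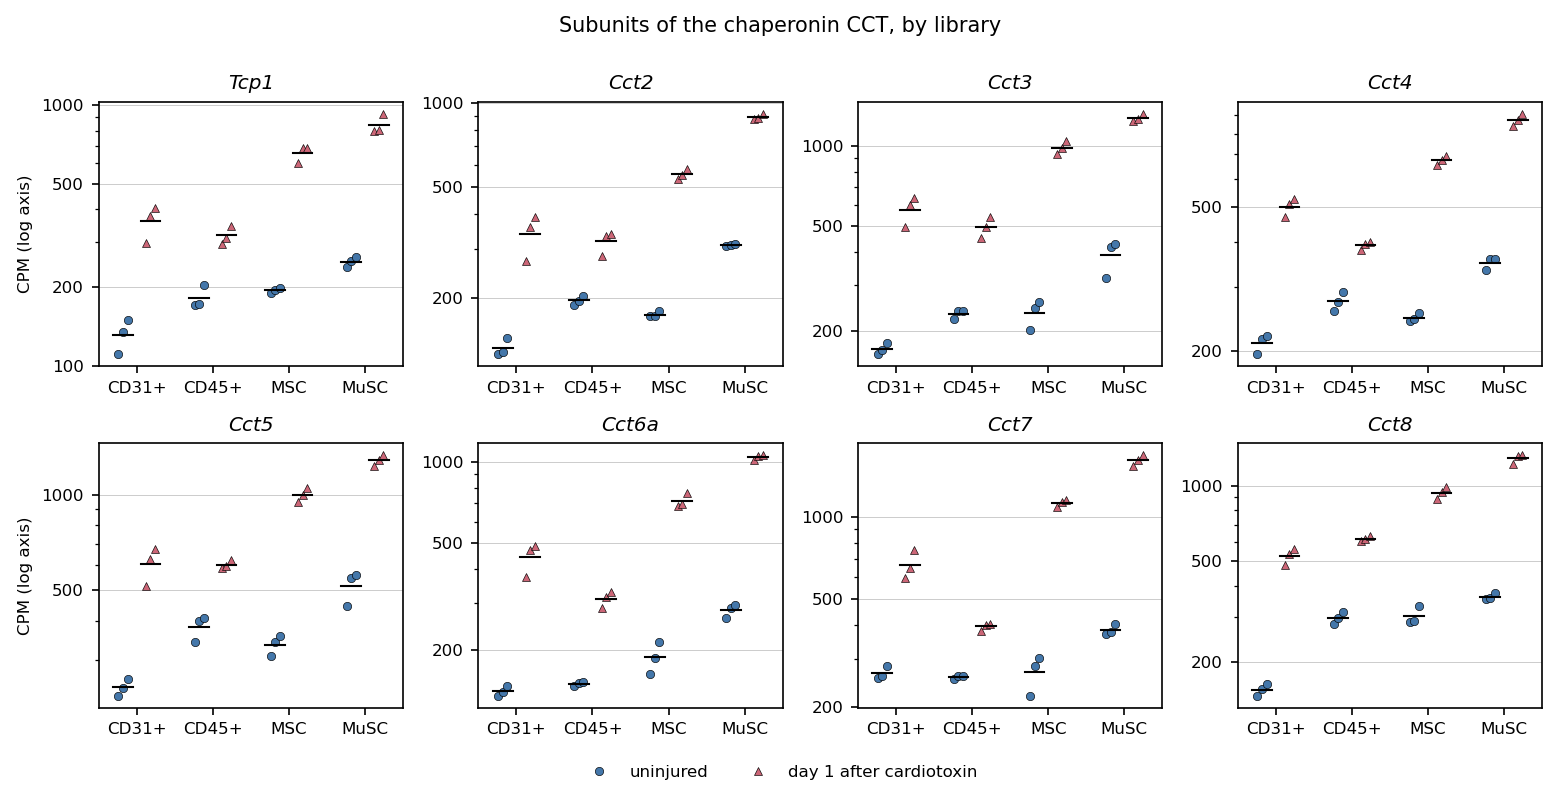
CPM on a log axis of the 8 CCT subunits in each of 24 libraries (circles uninjured, triangles day 1 after cardiotoxin, bars the mean of 3) by sorted population. In every panel the triangles lie above the circles of the same population, and the MuSC circles have the highest mean of the 4 uninjured groups.

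Hspd1 (chr1:55077835-55088243), the barrel of the mitochondrial chaperonin, had the largest rise of the 82 tested members in MSC and in MuSC. It rose from 76.9, 65.9 and 72.6 CPM to 732, 660.3 and 679 CPM in MSC (log2 fold change 3.26 ± 0.13, adjusted p = 5.99e-15). In MuSC it rose from 114, 134 and 133 CPM to 1000.4, 938 and 964 CPM (2.93 ± 0.12, adjusted p = 2.17e-14). In CD31+ cells the injured libraries held 206, 194 and 159.5 CPM (2.08 ± 0.12), above 47.0, 39.5 and 45.4 CPM before injury. In CD45+ cells Hspd1 went from 58.9, 76.6 and 76.4 CPM to 143, 130.1 and 160.0 CPM (1.03 ± 0.12). The conditions did not overlap in any population, and CD45+ cells gained least. Hspe1 (chr1:55088132-55091307), the lid, rose in CD31+ cells (25.1, 17.2 and 11.5 CPM to 88.5, 78.4 and 56.5 CPM, 2.03 ± 0.20), in MSC (51.8, 49.1 and 47.3 CPM to 231, 222 and 232 CPM, 2.21 ± 0.19) and in MuSC (67.8, 69.1 and 77.4 CPM to 328, 378 and 331 CPM, 2.27 ± 0.18). In CD45+ cells its libraries held 58.6, 41.1 and 59.5 CPM before and 61.1, 74.0 and 69.4 CPM after injury, which do not overlap but did not pass (0.36 ± 0.19, adjusted p = 0.143). Per kilobase of transcript the ratio of Hspe1 to Hspd1 was 2.04 to 2.33 before and 0.990 to 1.07 after injury in MSC, and 1.62 to 1.86 before and 1.03 to 1.26 after in MuSC, with no overlap. It was 1.68 to 3.12 before and 1.34 to 1.78 after in CD45+ cells, and 0.793 to 1.67 before and 1.11 to 1.35 after in CD31+ cells, and there the conditions overlapped in both populations. The pair start head to head and overlap on opposite strands, and reads without strand cannot be divided there.

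Hspa9, the Hsp70 of mitochondria and partner of Hspd1 in import and folding, rose in all 4 populations, by 2.18 ± 0.15 in MSC (133, 119 and 124 CPM to 606, 553 and 547 CPM), 1.91 ± 0.15 in CD31+ cells, 1.52 ± 0.15 in MuSC and 0.89 ± 0.15 in CD45+ (log2, SE). Its DnaJ partner Dnaja3 rose by 0.98 ± 0.13 in CD31+ cells, 0.89 ± 0.13 in MSC, 0.47 ± 0.13 in CD45+ and 0.44 ± 0.13 in MuSC. Dnajc15 and Dnajc19 are DnaJ genes of the inner membrane import motor. Dnajc15 rose in MuSC from 19.4, 21.7 and 19.2 CPM to 67.7, 56.2 and 67.9 CPM (1.67 ± 0.25) and in MSC (1.13 ± 0.25). In CD31+ cells the call (1.02 ± 0.26, adjusted p = 0.00585) was lost without injured library 1, the one with leukocyte markers (adjusted p = 0.0904), and with the 6 CD31+ libraries alone (adjusted p = 0.054). The part of those leukocyte markers was not tested. Dnajc19 passed in no population. Of 11 further genes of mitochondrial protein quality control, proteases and cofactors outside the set, 5 rose in CD31+ cells, 3 in CD45+, 8 in MSC and 6 in MuSC, with medians of 0.53, 0.33, 0.96 and 0.75 (log2).

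Of the cytosolic Hsp90 pair, the inducible Hsp90aa1 (chr12:110690605-110702728) had a larger log2 fold change in each population than the constitutive Hsp90ab1 (chr17:45567775-45573271). Hsp90aa1 rose from 129, 93.2 and 109 CPM to 718, 637 and 588 CPM in MuSC (2.55 ± 0.18), from 83.1, 63.2 and 90.4 CPM to 423, 361 and 429 CPM in MSC (2.36 ± 0.18). It also rose from 40.0, 30.8 and 42.7 CPM to 150.4, 193 and 134 CPM in CD31+ cells (2.07 ± 0.19). In CD45+ cells the gain was smaller (109, 77.2 and 129 CPM to 136, 179 and 166 CPM, 0.61 ± 0.18, adjusted p = 0.0103). That call was lost without uninjured library 2 or injured library 2 (adjusted p up to 0.0795). Hsp90ab1, by level the most abundant member per kilobase in 7 of 8 groups, rose by 1.27 ± 0.11 in MSC, 1.18 ± 0.11 in CD31+ and 1.15 ± 0.11 in MuSC, where its libraries went from 2703, 2476 and 2847 CPM to 5924, 6181 and 5749.9 CPM. In CD45+ cells it held 1728, 1547 and 1373 CPM before and 1572, 1682 and 1709 CPM after injury, which overlap (0.09 ± 0.11, adjusted p = 0.525). Its response differed between populations (adjusted p = 2.82e-06 by edgeR's F test). Per kilobase Hsp90aa1 stood at 2.89 to 3.65% of Hsp90ab1 in uninjured MuSC and at 7.85 to 9.30% in injured MuSC. The same ratio stood at 1.84 to 2.46% and 3.57 to 4.04% in CD31+ cells, and at 3.03 to 3.99% and 6.55 to 7.97% in MSC. In CD45+ cells it stood at 3.84 to 7.21% and 6.66 to 8.19%, which overlap. Of 16 co-chaperones of Hsp70 and Hsp90 outside the set (Stip1, Ahsa1, Cdc37 and others) 11 rose in CD31+ cells, 9 in CD45+, 13 in MSC and 13 in MuSC, with medians of 0.69, 0.49, 0.55 and 0.97 (log2).

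Hspa8 (chr9:40800984-40810087), the constitutive Hsp70 of the cytosol, rose in all 4 populations. It rose from 496, 525 and 588 CPM to 1757, 1473 and 1337 CPM in CD31+ cells (1.51 ± 0.12) and from 819, 709 and 702 CPM to 1679, 1557 and 1784 CPM in CD45+ (1.17 ± 0.12). It rose by 1.71 ± 0.12 in MSC and by 1.68 ± 0.12 in MuSC. The difference between populations passed narrowly (adjusted p = 0.042 by edgeR's F test) and was lost in 16 of 30 alternatives (adjusted p up to 0.126), which were chosen for this test after seeing the data. The Hsp110 gene Hsph1 (chr5:149614287-149636376), a nucleotide exchange factor for Hspa8, had the largest rise of any member in CD31+ cells, from 6.38, 6.21 and 1.18 CPM to 46.5, 57.1 and 33.8 CPM (3.26 ± 0.37, adjusted p = 7.58e-07). In MSC it went from 27.0, 19.0 and 23.8 CPM to 139, 127 and 117 CPM (2.45 ± 0.31) and in MuSC from 31.6, 34.6 and 31.2 CPM to 167, 152 and 118 CPM (2.17 ± 0.30). In CD45+ cells it went from 10.9, 9.54 and 22.3 CPM to 46.2, 23.0 and 37.8 CPM (1.33 ± 0.33). The endothelial fold started from the lowest uninjured level. Hspa4, also of the Hsp110 group, rose by 1.86 ± 0.12 in MSC and 1.86 ± 0.12 in MuSC, from 122, 116 and 94.6 CPM to 447, 396 and 366 CPM in the latter. It rose by 0.97 ± 0.12 in CD31+ and 0.56 ± 0.12 in CD45+ (adjusted p of the difference 9.41e-07, edgeR's F test). Dnaja1, a main DnaJ partner of Hspa8, rose by 1.54 ± 0.15 in MuSC (85.4, 105 and 71.1 CPM to 254, 247 and 256 CPM) and by 0.70 ± 0.15, 0.93 ± 0.15 and 0.80 ± 0.15 in CD31+ cells, CD45+ and MSC.

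**Figure D3:**
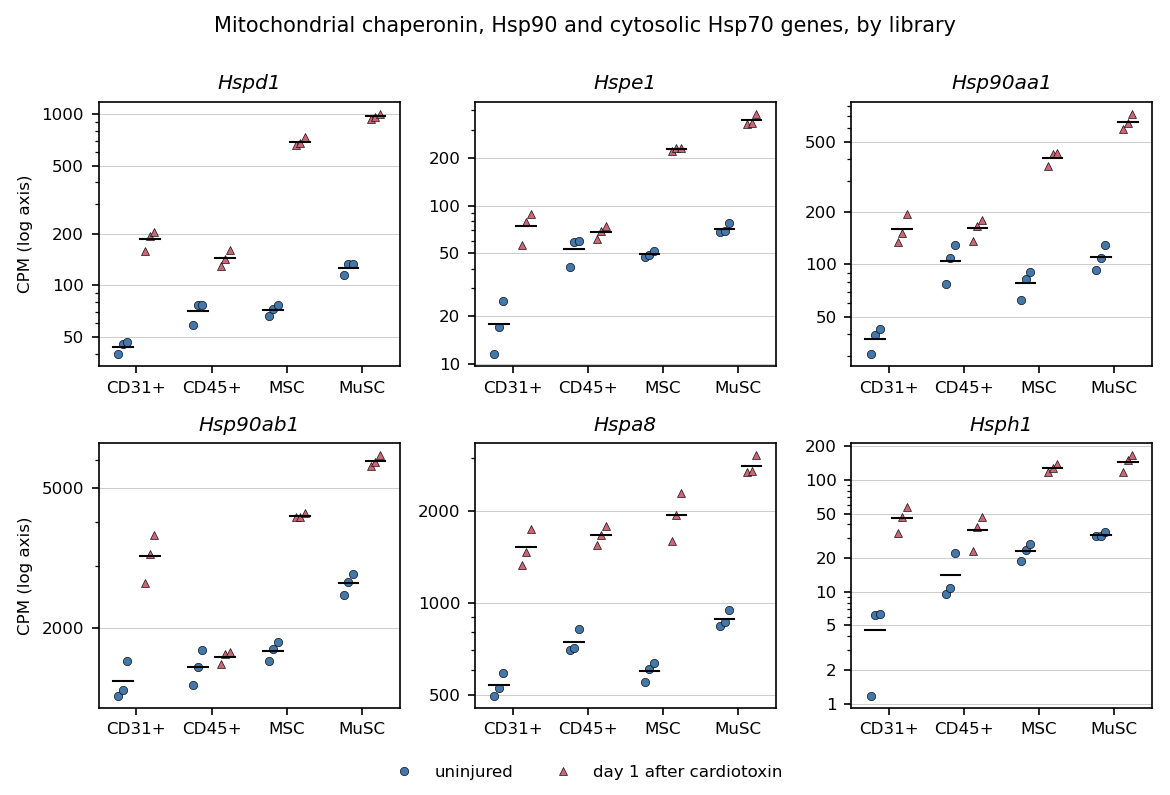
CPM on a log axis of 6 chaperone genes of the mitochondria and cytosol in each of 24 libraries (circles uninjured, triangles day 1 after cardiotoxin, bars the mean of 3). For Hspd1 the injured MSC and MuSC libraries stand at 660.3 to 732 and 938 to 1000.4 CPM, far above their uninjured libraries, while for Hsp90ab1 the CD45+ circles and triangles overlap.

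Some chaperones of the ER followed another order. Hspa5, Hsp90b1, Dnajb9, Dnajb11, Dnajc3 and Dnajc10 each had their largest log2 fold change in CD45+ cells. In MSC, where all 6 were highest before injury, only Hspa5 of the 6 rose and Dnajc10 fell. These ER members are grouped here by their known location, after their values were seen, and carry no test as a group. The 6 leave out Hspa13 and Dnajc1, also of the ER, which passed for injury in no population. Hspa5 (chr2:34771970-34777547), the Hsp70 of the ER, rose in CD45+ cells from 692, 616 and 526 CPM to 2562, 2504 and 2721 CPM (log2 fold change 2.09 ± 0.13, adjusted p = 2.45e-11), its largest gain. It rose from 354, 293 and 307 CPM to 1116, 918 and 834 CPM in CD31+ cells (1.59 ± 0.12) and from 418, 424 and 399 CPM to 1151, 1054 and 1057 CPM in MuSC (1.39 ± 0.12). In MSC, the highest uninjured population, it went from 2622, 2020.2 and 1989.9 CPM to 2788, 3351 and 2914 CPM (0.45 ± 0.12, adjusted p = 0.00413). The response differed between populations (adjusted p = 9.02e-07 by edgeR's F test), with CD45+ above the mean of the other 3 by 0.94 ± 0.14 and MSC below it (log2 difference -1.24 ± 0.14).

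Hsp90b1, the Hsp90 of the ER, rose in CD45+ cells from 499, 416 and 324 CPM to 856, 775 and 796 CPM (0.97 ± 0.14) and in MuSC from 367, 364 and 333 CPM to 553, 569 and 503 CPM (0.61 ± 0.14). In MSC its libraries held 1117, 1031 and 1104 CPM before and 989, 1200.5 and 1247 CPM after injury, which overlap (0.08 ± 0.13, adjusted p = 0.673). In CD31+ cells its call (0.45 ± 0.14, adjusted p = 0.0179) was lost with relative log expression scaling, with DESeq2 and without uninjured library 2 or 3 or injured library 2 (adjusted p up to 0.123). Dnajb9, a DnaJ partner of Hspa5 in disposal of misfolded protein, rose in CD45+ cells from 46.5, 43.1 and 49.8 CPM to 115, 120.1 and 128 CPM (1.38 ± 0.13, adjusted p = 2.85e-08). It did not pass elsewhere: its fold changes were -0.17 ± 0.13 in CD31+ cells, -0.05 ± 0.13 in MSC and -0.10 ± 0.13 in MuSC. The difference between populations passed (adjusted p = 7.94e-07, edgeR's F test). Dnajc3, another ER partner, rose in CD45+ cells (98.5, 107 and 64.7 CPM to 159, 169 and 180.3 CPM, 0.91 ± 0.16) and in MuSC (0.47 ± 0.17, adjusted p = 0.0284), where leaving out uninjured library 1 or 3 or injured library 1 or 3 ended the call. Dnajc10, an ER reductase, rose in CD45+ cells (0.83 ± 0.18) and fell in MSC from 77.8, 81.5 and 74.9 CPM to 62.1, 55.9 and 49.4 CPM (-0.48 ± 0.17, adjusted p = 0.0244). Its fall in MSC was lost without uninjured library 1 or 2 or injured library 2 or 3. Dnajb11 rose in CD45+ (1.02 ± 0.17), MuSC (0.95 ± 0.17) and CD31+ cells (0.71 ± 0.17) and had 0.37 ± 0.17 in MSC (adjusted p = 0.0815).

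Genes of ER folding outside the set were measured too. Of 12 (Hyou1, Calr, Canx, protein disulfide isomerases, Manf, Xbp1 and others) 11 rose in CD31+ cells, 11 rose and 1 fell in CD45+, 2 rose in MSC, and 10 rose and 1 fell in MuSC. The medians were 0.77, 1.34, 0.23 and 0.77 (log2) in the same order. Their sum went from 2471 to 3184 CPM before injury to 6750.5 to 6903 CPM after it in CD45+ cells and from 6337 to 7089 CPM before injury to 6938 to 7767 CPM after it in MSC. In MSC the 10 stromal markers, mostly secreted matrix genes, summed to 161178 to 212221 CPM before and 39511 to 57019 CPM after injury, with 6 of 10 lower by the test. The part of these markers, and of the lymphocyte and neutrophil markers in the CD45+ gate, in the ER results was not tested.

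**Figure D4:**
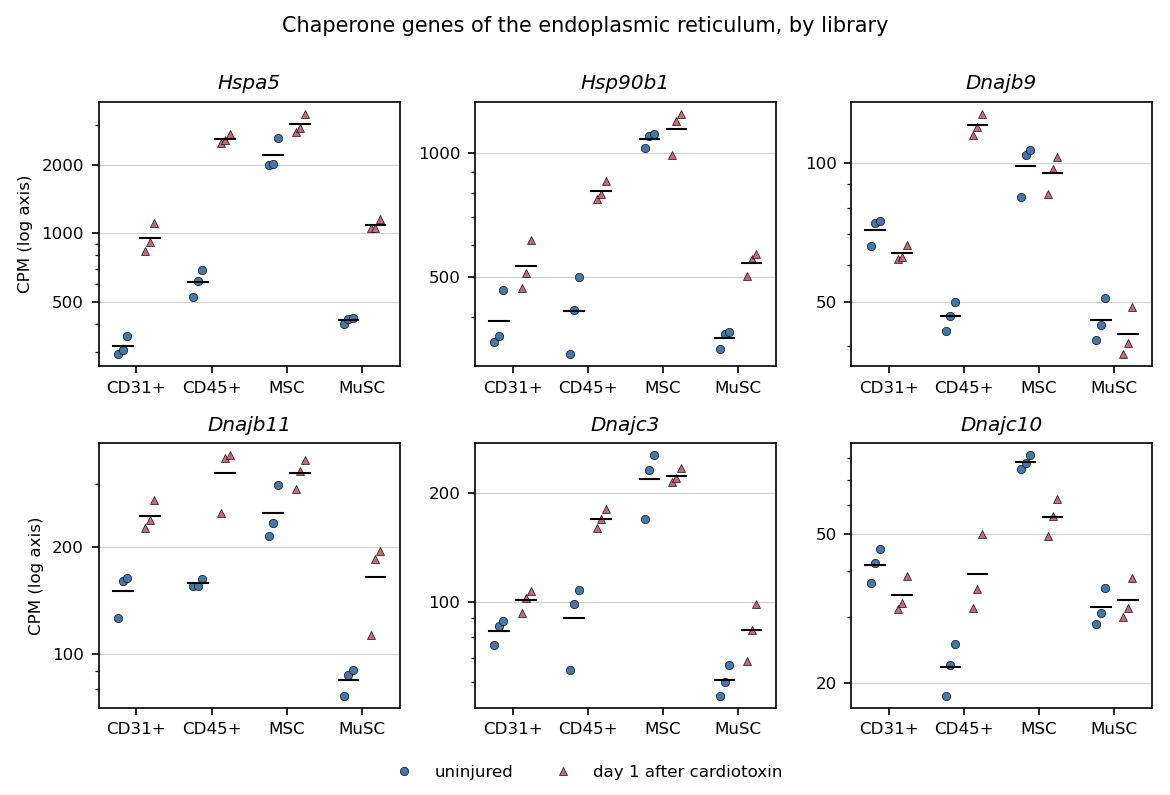
CPM on a log axis of 6 chaperone genes of the ER in each of 24 libraries (circles uninjured, triangles day 1 after cardiotoxin, bars the mean of 3). In all 6 panels the CD45+ triangles lie above the CD45+ circles; for Dnajb9 the circles and triangles of CD31+, MSC and MuSC lie close together, and for Dnajc10 the MSC triangles lie below the circles.

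The stress-inducible Hsp70 genes went the other way in CD45+ cells. Hspa1a fell there from 125, 92.0 and 258 CPM to 20.5, 45.8 and 28.5 CPM (log2 fold change -2.32 ± 0.51, adjusted p = 0.00186), with no overlap. In MuSC it held 217, 129 and 233 CPM before and 71.6, 115 and 81.0 CPM after injury, also without overlap. That difference missed the threshold (-1.12 ± 0.48, adjusted p = 0.0726) and passed with relative log expression scaling, DESeq2, limma voom or the 6 MuSC libraries alone. In CD31+ cells (40.6, 10.5 and 44.2 CPM, then 67.1, 60.7 and 26.4 CPM) and MSC (25.8, 20.2 and 43.1 CPM, then a mean of 22.6 ± 6.65 CPM, SD) the conditions overlapped. The uninjured CD45+ and MuSC libraries were thus the high ones, and the response differed between populations (adjusted p = 0.0173, edgeR's F test). Hspa1b, the near-identical copy, fell in CD45+ cells from 15.9, 10.4 and 23.5 CPM to 0.758, 1.47 and 3.74 CPM (-3.03 ± 0.57, adjusted p = 0.000195). Per kilobase Hspa1a stood at 10.5 to 29.7% of Hspa8 in uninjured CD45+ libraries and at 0.984 to 2.38% in injured ones. In MuSC it stood at 12.1 to 22.4% and 1.89 to 3.40%, in MSC at 2.68 to 6.34% and 0.605 to 1.51%, and in CD31+ cells, where the conditions overlapped, at 1.61 to 6.61% and 1.59 to 3.33%. Of the members with a mean of at least 20 CPM Hspa1a had the largest spread between replicates (pooled SD of log2(CPM + 1) 0.655).

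Immediate early genes (Fos, Jun, Egr1 and 12 others), which cells switch on within minutes of stress and during tissue dissociation, were also measured. In MuSC, where Hspa1a just missed the threshold, their sum went from 5224 to 7585 CPM before injury to 2729.8 to 3603 CPM after it, and 9 of 15 were lower by the test. In CD45+ cells it stood at 4659 to 9003 CPM before and 23289 to 34773 CPM after injury, with 13 of 15 higher, while Hspa1a fell. The part of these genes, and of the loss of lymphocyte markers, in the Hspa1a result was not tested. Hsf1, the factor that drives Hspa1a, passed in no population: its log2 fold changes were 0.38 ± 0.16 in CD31+ (adjusted p = 0.0856), 0.07 ± 0.16 in CD45+, 0.31 ± 0.16 in MSC and 0.06 ± 0.15 in MuSC. With no filter, or without CD31+ uninjured library 1 or injured library 3, it passed in CD31+ cells. In MSC its injured libraries lay above the uninjured ones without overlap. It passed there with no filter or with the MSC libraries alone. Hsf2 fell in MSC from 28.2, 24.9 and 27.8 CPM to 18.5, 19.4 and 12.2 CPM (-0.69 ± 0.25, adjusted p = 0.0305), a call that was lost without uninjured library 1 or 3 or injured library 3 (adjusted p up to 0.31 over the alternatives).

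Small heat shock proteins differed widely in level between populations. Hspb1 (chr5:135887919-135889563), which guards the actin cytoskeleton, held 460.0, 357 and 410.3 CPM in uninjured CD31+ libraries, 72.7, 40.1 and 69.5 in MSC, 54.0, 43.7 and 69.7 in MuSC and 2.61, 3.47 and 2.86 in CD45+. It passed for injury in no population (-0.01 ± 0.29 in CD31+ cells, -0.43 ± 0.63 in CD45+, 0.05 ± 0.30 in MSC and 0.62 ± 0.30 in MuSC, log2). In MuSC its injured libraries lay above the uninjured ones without overlap, and it passed with the MuSC libraries alone. Hspb8 (chr5:116408491-116422864), which works with Bag3 in autophagy of damaged filaments, held 446, 321 and 395 CPM in uninjured MSC against 13.7, 18.3 and 13.9 in MuSC and at most 5.08 in CD31+ and CD45+. In MuSC it rose to 45.2, 44.8 and 46.2 CPM (1.59 ± 0.31, adjusted p = 0.000357), while MSC went to 266, 274 and 287 CPM (-0.49 ± 0.27, adjusted p = 0.154). The latter passed as a fall with DESeq2, limma voom or the 6 MSC libraries alone. The conditions did not overlap in either, and the response differed between populations (adjusted p = 0.00297, edgeR's F test).

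Hspb2 and Hspb6, small heat shock proteins of muscle, were low. Hspb2 was highest in uninjured MuSC (23.4, 22.0 and 18.5 CPM) and fell in MSC from 9.22, 10.1 and 6.66 CPM to 1.40, 2.32 and 0.899 CPM (-2.47 ± 0.51, adjusted p = 0.000495). It overlaps Cryab, a small heat shock protein outside the set, on the other strand, and Cryab fell in MSC too, from 184 to 195 CPM to 46.8 to 87.2 CPM (-1.49 ± 0.28). Hspb6 fell in CD45+ cells from 16.8, 9.26 and 7.44 CPM to 2.02, 0.735 and 2.34 CPM (-2.71 ± 0.40) and in MSC from 8.21, 9.41 and 10.9 CPM to 2.94, 1.33 and 2.70 CPM (-2.01 ± 0.36). Muscle fiber markers fell in the same comparisons, with 8 of 12 lower by the test in CD45+ cells and 9 of 12 in MSC, and their part in these falls was not tested. Hspb6 was named after its values were seen.

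**Figure D5:**
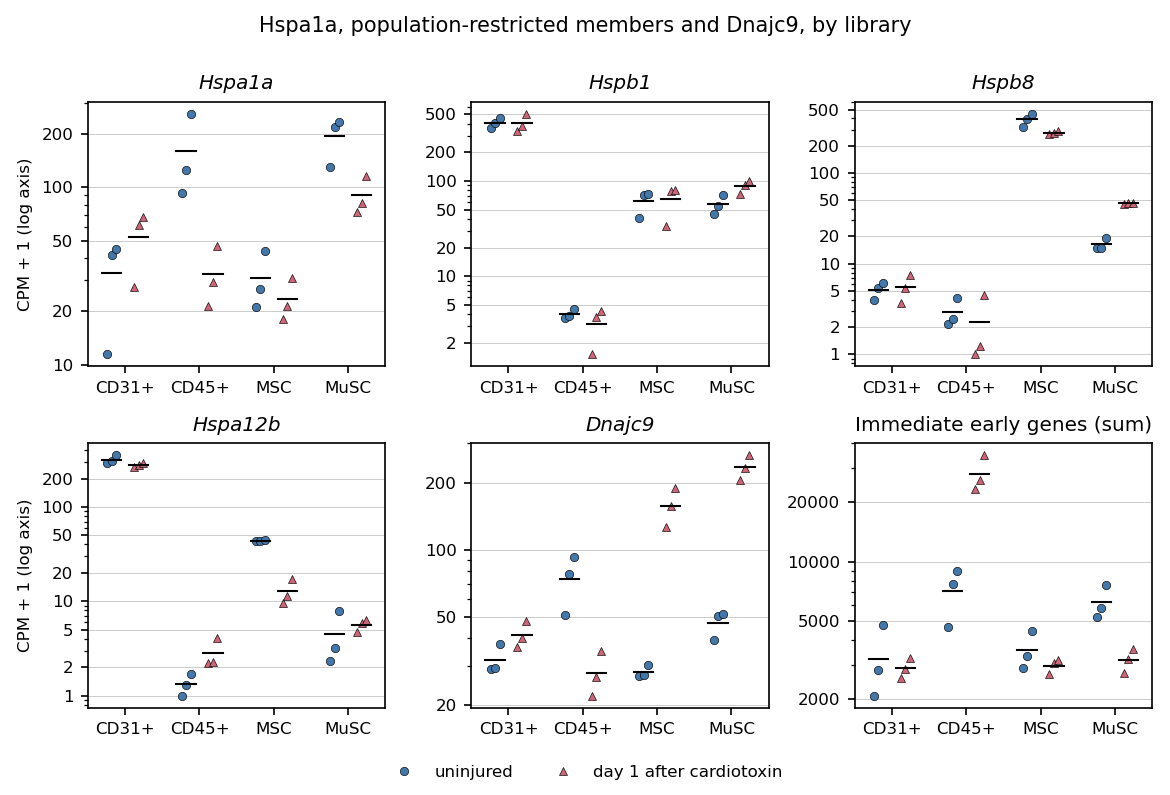
CPM + 1 on a log axis of Hspa1a, Hspb1, Hspb8, Hspa12b, Dnajc9 and the sum of 15 immediate early genes in each of 24 libraries (circles uninjured, triangles day 1 after cardiotoxin, bars the mean of 3). Hspa1a is high in uninjured CD45+ and MuSC, Hspb1 and Hspa12b in CD31+ cells, Hspb8 in MSC, and for Dnajc9 the triangles lie above the circles in MSC and MuSC and below them in CD45+.

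Among the DnaJ genes, which choose clients for Hsp70, 3 of the 4 A genes (Dnaja1, Dnaja2 and Dnaja3) rose in all 4 populations. Of the 13 B genes 2 rose in CD31+ cells, 3 in CD45+, 1 in MSC and 1 in MuSC, with 1 lower in CD45+ and 1 in MuSC. These are 15.4%, 23.1%, 7.69% and 7.69% rising, beside 14.1%, 16.0%, 18.3% and 21.4% of all tested genes: near the background in CD31+ cells and below it in MSC and MuSC. Of the 25 C genes 5, 4, 8 and 8 rose and 1, 1, 2 and 3 fell, in the same order. The 4 of CD45+ cells (16.0%) equal the background there. The other rises of C genes stand beside 14.1% of all tested genes in CD31+, 18.3% in MSC and 21.4% in MuSC. For falls of B and C genes the background was 9.30%, 18.5%, 23.6% and 17.5%, in the same order. Dnajb1, the inducible partner of Hspa1a, rose in MSC from 84.1, 72.4 and 96.0 CPM to 150.4, 127 and 156 CPM (0.78 ± 0.17). In CD31+ cells it missed the threshold, though its injured libraries lay above the uninjured ones without overlap. It passed there with no filter, limma voom or the CD31+ libraries alone. Its rise in CD45+ cells (77.4, 82.4 and 123 CPM to 119.8, 151 and 127 CPM, 0.49 ± 0.17, adjusted p = 0.0294) was lost without uninjured library 1 or 2 or injured library 2, and there its libraries overlapped. Dnajc2, a ribosome-bound DnaJ gene that meets chains as they are made, rose in MuSC from 35.8, 25.4 and 24.7 CPM to 119.8, 134 and 118 CPM (2.10 ± 0.18), in MSC (1.59 ± 0.18) and in CD31+ cells (1.16 ± 0.18). Its log2 fold change in CD45+ cells was 0.29 ± 0.17 (adjusted p = 0.208). Dnajb14, a membrane-bound DnaJ gene highest in uninjured CD45+ cells, fell there from 61.7, 67.1 and 42.9 CPM to 37.1, 22.1 and 39.2 CPM (-0.80 ± 0.24, adjusted p = 0.0115), a call lost without uninjured library 2 or injured library 2. In MuSC Dnajc13, an endosomal DnaJ gene, fell from 35.6, 28.1 and 30.6 CPM to 14.3, 17.7 and 24.5 CPM (-0.74 ± 0.23, adjusted p = 0.013; lost without uninjured or injured library 1). Dnajc18 fell there by 0.64 ± 0.16 (log2; adjusted p = 0.00308).

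Dnajc9 (chr14:20384638-20388910), a DnaJ protein that also binds histones, had the smallest adjusted p of any member for a difference in response (1.27e-09, edgeR's F test). It rose in MSC from 26.3, 26.0 and 29.3 CPM to 188, 126 and 155 CPM (2.52 ± 0.21) and in MuSC from 50.5, 49.1 and 38.3 CPM to 265, 204 and 231 CPM (2.35 ± 0.21). It fell in CD45+ cells from 50.1, 76.6 and 91.3 CPM to 25.8, 21.1 and 33.9 CPM (-1.43 ± 0.21). In CD31+ cells it held 28.3, 28.0 and 36.8 CPM and then 39.1, 35.5 and 46.7 CPM, which overlap (0.39 ± 0.21, adjusted p = 0.197). MSC and MuSC thus gained, CD45+ cells lost and CD31+ cells did not pass. Hspa12b (chr2:131127280-131146321), an atypical Hsp70 of endothelium, was at 302, 288 and 353 CPM in uninjured CD31+ libraries and did not pass there. It fell in MSC from 43.4, 42.3 and 42.7 CPM to 8.67, 10.3 and 16.2 CPM (-1.88 ± 0.27), beside endothelial markers whose sum went from 95.5 to 119.9 CPM before injury to 13.3 to 20.4 CPM after it in the same libraries, with 1 of 10 higher and 1 lower by the test. Their part in the fall was not tested. In CD45+ cells it rose from 0.712, 0 and 0.286 CPM to 1.26, 1.23 and 3.04 CPM (adjusted p = 0.0353), levels around 3 counts a library. The call was lost without uninjured library 2 or 3 or injured library 3.

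Hspa2, an Hsp70 best known from the testis, fell in MSC from 21.3, 24.9 and 22.4 CPM to 11.5, 4.64 and 7.55 CPM (-1.52 ± 0.35) and in MuSC (-0.90 ± 0.36, adjusted p = 0.0482), where it was lost without uninjured library 1 or 3 or injured library 1 or 2. Among the Bag genes, which release clients from Hsp70, Bag2 rose in MuSC from 19.6, 21.4 and 22.6 CPM to 73.3, 75.8 and 72.3 CPM (1.80 ± 0.39), and Bag1 rose there by 1.21 ± 0.32. In CD31+ cells and MSC the injured libraries of Bag2 also lay above the uninjured ones without overlap, but it missed the threshold. It passed in both with no filter or limma voom, and in MSC also with the MSC libraries alone. Bag3, a stress-inducible partner of Hspb8, rose in CD45+ cells from 44.4, 40.8 and 44.7 CPM to 68.0, 61.5 and 65.2 CPM (0.58 ± 0.12) and in MSC (0.38 ± 0.11). Bag5 fell in MSC from 147, 144 and 120.2 CPM to 85.1, 72.1 and 89.0 CPM (-0.74 ± 0.14, adjusted p = 0.000205). Bag1 in CD31+ cells stood at the threshold (0.85 ± 0.31, adjusted p = 0.05) and passed in 5 of the alternatives, among them without injured library 1.

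Before injury 70 of the 82 tested members differed in level between the 4 populations, as did 78.7% of all tested genes. Members highest in one population, above each of the other 3 by the test, numbered 15 in MuSC (17.2%, against 7.88% of tested genes), 9 in MSC (10.3%, against 9.09%), 7 in CD31+ (8.05%, against 9.92%) and 7 in CD45+ (8.05%, against 13.7%). The 15 of MuSC were the 8 CCT subunits, Hspd1, Hspa9, Dnaja3, Hsp90ab1, Hspbp1, Hsf1 and Hspb2. The 9 of MSC were Hspb8 and 8 members of the ER: Hspa5, Hsp90b1, Hspa13, Dnajb9, Dnajb11, Dnajc1, Dnajc3 and Dnajc10. The 7 of CD31+ were Hspa12b, Hspb1, Hspa2, Dnaja1, Dnajc8, Dnajc14 and Dnajc17. The 7 of CD45+ were Dnajb13, Dnajb14, Dnajc2, Dnajc7, Dnajc9, Dnajc15 and Hspa4. Hsf1 held 138, 129 and 132 CPM in uninjured MuSC libraries against a mean of 71.3 ± 16.5 in CD31+ (SD, n = 3), 60.7 to 66.2 in CD45+ and 54.3 to 69.7 in MSC. Dnajb13 overlaps Ucp2 on the other strand, and its 26.3, 25.2 and 18.6 CPM in CD45+ cells may include reads of that gene, which were not separated here. Hspa13, an Hsp70 of the ER, held 33.7, 33.8 and 32.4 CPM in MSC and passed for injury in no population, but did in CD31+ cells without uninjured library 2. In MuSC, where its injured libraries lay above the uninjured ones without overlap, it passed with no filter, limma voom or the MuSC libraries alone.

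Per kilobase of transcript, which allows genes to be compared, the order of levels at rest differed by population. Hsp90ab1 stood first in each uninjured group (559 CPM per kilobase in CD31+ cells, 615 in CD45+, 683 in MSC and 1062 in MuSC). Next came Hspb1 in CD31+ (453), Hspa5 in MSC (602) and Hspa8 in CD45+ (311) and MuSC (369). After injury Hspa5 stood first in CD45+ cells (707), just above Hspa8 (699) and Hsp90ab1 (656), and Hsp90ab1 remained first in the other 3 (1266 in CD31+ cells, 1652 in MSC and 2362 in MuSC). In CPM those 3 held 2596 ± 112, 1673 ± 114 and 1654 ± 72.3 (SD, n = 3) in injured CD45+ libraries, and their order was not tested.

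The response to injury differed between populations for 44 of 87 members (50.6%, against 35.9% of tested genes). CD45+ cells stood apart most: the injury effect lay below the mean of the other 3 populations for 27 members (31.0%, against 16.1%) and above it for 8 (9.20%, against 9.59%). The 27 held all 8 CCT subunits, Hspd1 and Hspe1. Hsp90ab1 (log2 difference -1.11 ± 0.12) and Hsp90aa1 (-1.72 ± 0.21) were also among them. Dnajb9 (1.49 ± 0.15), Hspa5, Hsp90b1, Dnajc3 and Dnajc10 were among the 8. In MSC 15 members lay above the mean of the others (17.2%, against 6.39%), 7 CCT subunits among them, and 6 below (6.90%, against 8.29%), Hspa5 and Hsp90b1 among them. In MuSC 15 lay above (17.2%, against 9.32%) and 2 below (2.30%, against 4.17%). In CD31+ 4 lay above (4.60%, against 5.64%) and 5 below (5.75%, against 3.64%). The MuSC and MSC splits rest on single libraries. Without uninjured CD31+ library 1 they became 9 above and 7 below in MuSC and 21 and 3 in MSC. Without uninjured MSC library 1 they became 8 and 8 in MuSC and 20 and 2 in MSC. The median of this difference over all genes tested was 0.11 (log2) in MuSC with all libraries, -0.10 without the first and -0.10 without the second. These differences share groups, so the counts of the 4 populations are not independent.

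Counts of some members are uncertain beyond the spread between libraries. Symbols of processed pseudogenes took few reads: Hspd1-ps3 held most, 195 counts over 24 libraries beside 42147 of Hspd1. The 6 Hspe1 pseudogene symbols held at most 30 each beside 16079 of Hspe1. How reads that match a gene and its pseudogenes were treated is not given in the sources used here. Genes on the other strand overlap many members beside the pairs named above. Among them are Cct6a, Cct7, Cct8, Tcp1, Dnaja1, Dnaja3, Dnajc7, Dnajc17, Hspb6, Hsp90b1, Hspa1a, Hspa13, Dnajb11, Dnajb14, Dnajc1, Dnajc14, Dnajc18, Dnajc19, Hspa12a and Bag2. Reads were not separated by strand here. On the same strand, other genes overlap Bag3, Hspa8, Hspa9, Hspa12b and Hspa14, among others. These overlaps are between whole gene spans, which need not share exons.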

How the data were processed

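Whole-transcript RNA-seq of 24 libraries was used as 1 table of raw counts per gene symbol, deposited by the authors. Reads were aligned with STAR 2.5.4 to mm10 and counted with featureCounts, per the submitters' processing notes; for the annotation and multiply matching reads, this was not given in the sources used here. Counts were tested with edgeR 4.0.16 (R 4.3.3): TMM scaling, filterByExpr over 8 groups, robust quasi-likelihood fit with 1 mean per group (16 residual degrees of freedom), and Benjamini-Hochberg adjustment over 16263 genes, called below 0.05. CPM are on TMM-scaled library sizes, and SE is the absolute log2 fold change over the root of F. Alternatives used relative log expression scaling, no filter, DESeq2 1.42.0, limma 3.58.1 voom, each population alone, a replicate block, and each library left out. The fit was tested on simulated data. Positions are GRCm38 (GENCODE release 21 of the mouse). Named genes were core members fixed by name, up to 6 called members with the largest rise and fall per population, 6 with the smallest interaction p, and 5 highest at rest per population, with at least 20 CPM. The members and lists were chosen with earlier results of these data known.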

Additional observations from a re-analysis of the deposited data

Results flagged for a closer look

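The injury effect differed between the 4 populations for 44 of the 87 members by edgeR's quasi-likelihood F test with 3 degrees of freedom and Benjamini-Hochberg adjustment over all genes tested, where 35.9% of all tested genes did. The adjusted p of that difference is given in parentheses for each named member that passed, and no explanation was tested. Among the CCT subunits it was lowest for Cct7: Tcp1 (0.000176), Cct2 (8.33e-05), Cct3 (0.000363), Cct4 (2.83e-06), Cct5 (0.000217), Cct6a (0.000122), Cct7 (6.49e-08) and Cct8 (5.4e-05). For the mitochondrial chaperones it passed for Hspd1 (3.18e-09), Hspe1 (6.59e-06) and Hspa9 (0.000162). For cytosolic Hsp90, Hsp70 and Hsp110 it passed for Hsp90aa1 (7.03e-06), Hsp90ab1 (2.82e-06), Hspa8 (0.042), Hsph1 (0.0265) and Hspa4 (9.41e-07), and for the stress-inducible pair Hspa1a (0.0173) and Hspa1b (0.000958). For ER members it passed for Hspa5 (9.02e-07), Hsp90b1 (0.00534), Dnajb9 (7.94e-07), Dnajc3 (0.0222) and Dnajc10 (0.00116). Other DnaJ genes that passed were Dnaja1 (0.0121), Dnajb14 (0.0313), Dnajc2 (3.05e-05), Dnajc9 (1.27e-09) and Dnajc15 (0.0233). The rest were Hspb8 (0.00297), Hspa2 (0.0146), Hspa12b (0.000216), Bag2 (0.0456) and Bag5 (0.0296).

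A rise in one population and a fall in another were both called for these members. Dnajc9 rose in MSC (2.52 ± 0.21, log2, SE) and fell in CD45+ cells (-1.43 ± 0.21), and Dnajc10 rose in CD45+ cells (0.83 ± 0.18) and fell in MSC (-0.48 ± 0.17). Hspa12b fell in MSC (-1.88 ± 0.27) and rose in CD45+ cells (adjusted p = 0.0353), where its counts were near 3 a library.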

How the results depend on the processing

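Of 2160 fold changes of the 45 named members recomputed under the alternatives, 2072 kept their direction and their side of the threshold or stayed uncalled, 51 lost the call, 37 gained one, and 0 called values changed sign; 55 uncalled values did. The calls gained by leaving out 1 library, beside those in the report, were Bag2 and Bag5 in CD45+ cells without injured library 1 and 3, Hspa2 and Hspb8 in CD45+ cells without injured library 3, and Hspa12b in MuSC without uninjured library 1. For the difference in response, alternatives chosen after seeing the data left the call of 24 of 33 named members in every one of 30 alternatives, and Bag2, Bag5, Dnaja1, Dnajb14, Dnajc15, Dnajc3, Hspa2, Hspa8 and Hsph1 lost it in 1 or more. Bag2 lost it in 22 of the 30, Hspa8 in 16 and Dnajb14 in 8.

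The members that fell in CD31+ cells numbered 0 with no filter (4 at an unadjusted p under 0.05), 4 with DESeq2, 2 with limma voom and 0 with the replicate number as a block (3 at an unadjusted p under 0.05). In MSC 15 fell with DESeq2, beside 31 that rose, and in MuSC 10 fell with relative log expression scaling, DESeq2 or limma voom. Below the mean of the other populations lay 2 members in CD31+ with no filter and 8 with DESeq2, and in MuSC 0 with no filter (9 at an unadjusted p under 0.05) and 1 with the replicate block in either form. The cause of these changes was not tested. Relative log expression scaling moved the median of all genes in CD31+ cells to -0.14, a shift of -0.11 (log2).

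Leaving out each library of the groups compared in turn gave 28 to 32 rises and 0 to 1 falls in CD31+, 26 to 30 and 4 to 8 in CD45+, 31 to 32 and 6 to 8 in MSC, and 33 to 37 and 3 to 7 in MuSC. Libraries of the other populations, which share the scaling and the spread, widened this to 34 rises and 10 falls in MSC and 10 falls in MuSC. The response differed for 38 to 45 members. Members above and below the mean of the others numbered 2 to 6 and 2 to 7 in CD31+, 7 to 10 and 22 to 28 in CD45+, 10 to 21 and 2 to 7 in MSC, and 8 to 17 and 0 to 8 in MuSC. In CD31+ cells 2 lay above without uninjured or injured library 2 and 6 without injured library 3, and 2 lay below without uninjured library 2 or injured library 1. In MuSC 0 lay below without uninjured library 1 or 3 or injured library 1 or 2. At rest 66 to 71 members differed, and 5 to 7, 6 to 9, 7 to 9 and 13 to 17 were highest in CD31+, CD45+, MSC and MuSC.

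Deviations of same-numbered libraries from their group means showed no common trend: their correlations averaged 0.0014 and ranged from -0.092 to 0.133. In 0 of 28 pairs of groups did all exceed 0.1. An effect of a shared mouse that is small beside the other spread would be missed. Whether equal muscle numbers mark the same mouse thus stays undecided. Depth limits the low members: Hspa12b had 0 to 3 counts in uninjured CD45+ libraries.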
